A study of Drosophila melanogaster with 19 samples.

Results

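The regions described here are the weaker MSL2 peaks of the male X chromosome that lie at the ends of genes and are found in both fly lines with peak lists, 390 in all. MSL2 was mapped by chromatin immunoprecipitation and sequencing (ChIP-seq) in whole adult males, 3 days old, of the M1[wt] line and of the wt line. Both carry the strain label Oregon-R. The series covers 19 samples of MSL1, MSL2, MSL3 and preimmune IgG in males and females, among them lines labelled M1[wt]_M2 and lines with deletions in MSL1, of which only the MSL2 samples of M1[wt] and wt males were analysed here. Each of these groups is 1 listed sample. The promoter that drives MSL1 in the M1[wt] line, and the state of the native msl-1 gene there, are not stated in the labels.

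MSL2 is a male-limited subunit of the dosage compensation complex of Drosophila melanogaster, in which MSL1 is the scaffold. The complex gathers on the single male X, where it raises transcription of many genes. It is known to enter the X at high-affinity sites that contain GA-rich sequence, among them the genes of its noncoding roX RNAs, and to reach transcribed genes from there, with more binding over the body and the 3′ part of genes than at promoters. In this account "weaker" means outside the 200 strongest X peaks of the wt list.

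The strength of a peak is its −log10 p as deposited by the authors, the lower of the values from 2 replicate calls. Depth raises this value and is unknown, so a difference between the lists is not a measured difference in binding. Members were taken from the wt list of 3799 peaks, of which 1615 lay on the X. After the 200 strongest X peaks were left out, 1415 remained, and 1036 of those overlapped a peak of the M1[wt] list (3944 peaks, 1595 on the X) by at least 1 base. The summit of 390 of these, 37.6%, lay within 500 bases of the lower or upper end of a protein-coding or lncRNA gene. Of the span between the first and last X-linked gene, 15.7% lies that close to an end. The members were thus chosen by wt strength, overlap and distance, so these values are given as descriptions. The peaks are not replicates of a condition, and no test was run between classes of peaks.

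The wt strength of the members was fixed in part by the rule. They ran from X rank 201 to X rank 1607 in the wt list. Their median −log10 p was 40.7 in the M1[wt] list (95% interval of the median 34.8 to 45.3, interquartile range 21.3 to 75.6) and 27.6 in the wt list (24.4 to 31.9, interquartile range 16.5 to 52.0). The values spanned 10.6 to 531 in M1[wt] males and 8.04 to 136 in wt males. A value of 100 or more was reached by 65 members in M1[wt] males and by 16 in wt males. The M1[wt] values came from 381 distinct peaks, since 18 members shared their M1[wt] peak with another member. The value of a shared peak is counted for each of its members, such as 250 for the CG7024 members at 89.1 and 35.5 in wt males. The member at CG2116, at 19.9 in wt males, carried the same M1[wt] value, 321, as the CG10958 peak among the strongest 200. At the edge of the rule, the last members in and the first peaks out were alike in wt strength. The first members were at Lim1, Gbeta5 and mbt (136, 132 and 130), while the last gene-end peaks among the strongest 200 were at CG10958, CG8034 and NFAT (141, 141 and 140). The members farthest from an end, at rtv and CG7065, had summits 496 bases away, and the nearest shared peaks past the limit, at CG14194 and CG1695, had summits 501 bases away.

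The members fell on both sides of the annotated ends, and most were inside a gene, as is most X sequence that close to an end. The summit was inside at least 1 gene in 297 of 390 members, 76.2% (71.6 to 80.3%, the exact Clopper-Pearson interval at 95%, which covers counting error only). It was outside every gene in the other 93. The X sequence inside genes was 1.14 Mb at 0 to 200 bases from the nearest end and 1.47 Mb at 200 to 500 bases. Outside genes it was 0.543 and 0.460 Mb at these distances. The share inside is therefore not read as a trait of the members. Relative to the gene whose end was nearest, 250 summits were inside and 140 outside. In the densities below, inside means within any gene, also where the nearest end belongs to another gene. Along the X the summits of weaker shared peaks formed a pair of maxima around gene ends. The first lay just outside genes, with 145 summits per Mb of available sequence in the 100 bases next to an end. The density was 97.8 and 79.1 per Mb in the first and second 100 bases inside, and the second maximum came deeper, with 148 per Mb between 300 and 400 bases inside. These densities rest on 45, 57, 44 and 73 summits. It was still 120 per Mb between 500 and 600 bases inside, so the limit of 500 bases cuts through this second maximum. It was 16.7 per Mb between 500 and 600 bases outside.

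**Figure D1:**
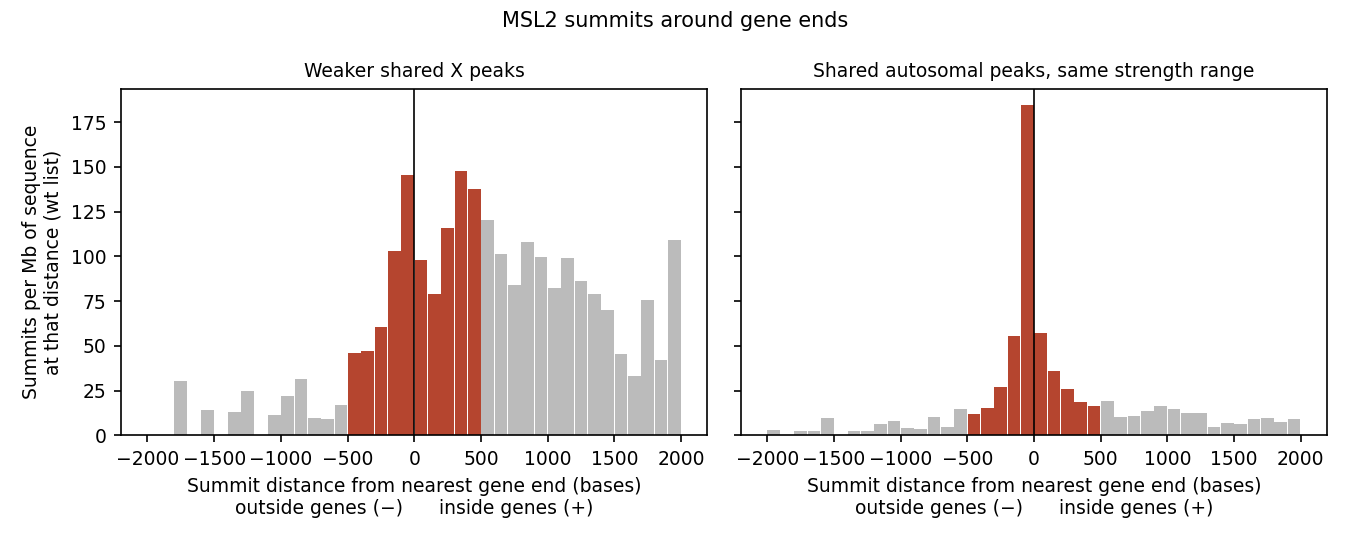
Density of MSL2 summits of wt peaks that overlap an M1[wt] peak, by distance from the nearest gene end in 100-base steps. Distances are negative outside every gene and positive inside any gene. Weaker X peaks are on the left, and autosomal peaks no stronger than the strongest member on the right. Bars within 500 bases are coloured; the X bars reach 145 per Mb just outside an end and 148 per Mb between 300 and 400 bases inside, while the autosomal bars have 1 maximum, 184 per Mb just outside an end.

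Autosomal gene-end peaks lay closer to the ends and less often inside a gene, a description without a test. Of the shared autosomal peaks in the same strength range, 877 had a summit within 500 bases of an end. The median distance of the summit from the end was 228.5 bases in X members (95% interval of the median 208 to 256) and 79 bases on the autosomes (68 to 91). Within 100 bases of an end lay 26.4% of the members (22.1 to 31.1%) and 56.7% of the autosomal peaks (53.3 to 60.0%). The rule bounds these distances at 500 bases, and X sequence fills the whole window. It was 582843 bases inside genes and 309750 outside at 0 to 100 bases, and 450255 and 130672 at 400 to 500 bases. The member distances are therefore not read as closeness to ends. A summit inside a gene was found for 76.2% of members and 49.9% of the autosomal peaks (46.6 to 53.3%). Autosomal sequence inside genes was 6.05 Mb at 0 to 200 bases from the nearest end and 7.45 Mb at 200 to 500 bases. Outside genes it was 3.01 and 2.57 Mb. On the autosomes the density was 184 per Mb in the 100 bases outside an end and 18.6 per Mb between 300 and 400 bases inside. The 134 gene-end X peaks that were outside the 200 strongest but had no M1[wt] counterpart were of lower strength than the members, with a median wt −log10 p of 13.5 (95% interval of the median 12.6 to 15.7). They had 77.6% inside a gene (69.6 to 84.4%) and a median distance of 265.5 bases (209 to 303). The 63 shared gene-end peaks among the 200 strongest had 74.6% inside a gene (62.1 to 84.7%) and a median of 211 bases (157 to 280).

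For most members the M1[wt] summit, which the rule had not used, also lay near an end. This largely follows from the rule, which set the wt summit and required overlap. The M1[wt] summit lay within 500 bases of an end for 362 of 390 members, 92.8% (89.8 to 95.2%), against 37 of the 646 weaker shared X peaks away from ends, 5.73% (4.06 to 7.81%). It was inside a gene for 76.4% of the members (71.9 to 80.5%). Summits of the lists were a median of 23 bases apart for members (95% interval of the median 20 to 29) and 31 bases for the weaker shared X peaks away from ends (26 to 36). They were over 500 bases apart in 40 members, and in 22 members the M1[wt] summit fell outside the wt interval. The overlap requirement itself favours near summits, so these shares and distances describe the pairs that met it. They are not separate support for the position.

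Members outside genes were narrower than members deep inside them, again without a test. The 93 members outside genes had a median width of 618 bases in the M1[wt] list (95% interval of the median 568 to 752) and 561 bases in the wt list (513 to 664). The 194 members more than 200 bases inside a gene had medians of 1020.5 bases in the M1[wt] list (867 to 1168) and 821 bases in the wt list (767 to 948). The 103 members inside a gene and 200 bases or less from an end lay between, at 932 bases in the M1[wt] list and 781 bases in the wt list. The median −log10 p of the members outside genes was 53.9 in M1[wt] males (39.6 to 70.8) and 34.1 in wt males (24.2 to 43.1). For the members inside a gene and 200 bases or less from an end it was 45.3 in M1[wt] males (31.7 to 55.3) and 32.2 in wt males (27.1 to 39.1). That end can belong to a gene other than the one that holds the summit. For the members more than 200 bases inside a gene the median was 34.6 in M1[wt] males (27.4 to 40.7) and 24.3 in wt males (21.1 to 27.5). The intervals of these medians overlap between the classes in both lists. Across all members the Spearman correlation of wt strength with wt width was 0.37, a description. The wt interval of 67.2% of members covered an annotated end (62.3 to 71.8%), 262 of 390.

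Some members sat near the ends of 2 or more annotated genes. The ends of 2 or more genes lay within 500 bases of the summit in 125 members, 32.1% (27.4 to 36.9%), with 116 at 2 genes and 9 at 3 or more. Among the 116, the genes were separate in 95 cases, with a median gap of 167 bases between them, and overlapped in 21. The overlapping genes include pairs annotated with the same coordinates, such as waw and bbx. The summit lay in the gap in 27 of the 95 and inside a gene in 68. Beside the 32.1% of members, the ends of 2 or more genes were near 41.3% of the shared gene-end peaks among the 200 strongest (29.0 to 54.4%). The share was 38.8% in the weaker X gene-end peaks without a counterpart (30.5 to 47.6%) and 49.7% in the autosomal gene-end peaks (46.4 to 53.1%). Strand is not used here, so a start of transcription is not told from a 3′ end, and it is not known whether such pairs of genes run toward or away from each other. The members with the most ends within 500 bases, 4 each, lay at Tim9b, Pstk and CG14210, at MKP-4, CG14212 and e(y)3, at NdufA3, Zpr1 and Dlip1, at mh, Alg14 and Grip128, and at ssp7, CG15199 and CDK2AP1. Tim9b and Pstk are annotated with the same coordinates, so their end near the summit is counted for each. Tim9b encodes a mitochondrial import protein, Pstk a kinase that acts on serine tRNA for selenocysteine, and e(y)3 a subunit of a chromatin remodelling complex.

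The strongest members in wt males came from genes of several kinds. The member of highest wt strength lay at Lim1, which encodes a LIM-homeodomain transcription factor (chrX:8805690-8806118, Release 6, summit 152 bases outside the gene). Its replicate calls were 507 and 563 (−log10 p) in M1[wt] males, against 154 and 136 in wt males. Both M1[wt] calls thus lay above both wt calls. At btd, which encodes a zinc-finger protein of head development (chrX:9693723-9694239, summit 226 bases outside), the calls gave 503 and 563 in M1[wt] males, against 124 and 115 in wt males. At unc-4, which encodes a homeodomain protein (chrX:17768070-17768596, summit 212 bases outside), they gave 531 and 592 in M1[wt] males, against 146 and 97.7 in wt males. The values of these 3 genes do not overlap between the lists. Such separation is common, since both M1[wt] calls lay above both wt calls in 54.4% of members. The share was 59.6% of all 2819 shared peaks.

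Members at genes of the cytoskeleton and of signalling followed. At Arp2, a subunit of the complex that nucleates branched actin (chrX:16548410-16548815, summit 347 bases inside), the calls were 422 and 501 in M1[wt] males, against 193 and 124 in wt males. At Mer, which encodes Merlin, a regulator upstream of the Hippo pathway (chrX:19690635-19693598), they were 270 and 330 in M1[wt] males, against 187 and 123 in wt males. Vinc, which encodes the adhesion protein vinculin, had 158 and 216 in M1[wt] males, against 150 and 97.6 in wt males, and this member too has no overlap between the lists. Ac13E, which encodes an adenylyl cyclase, had 141 and 180 in M1[wt] males, against 154 and 123 in wt males, and the calls overlap. The member where mbt, which encodes a PAK-family kinase, meets the nucleoporin gene Nup153 (chrX:16610595-16613009) had 126 and 161 in M1[wt] males, against 151 and 130 in wt males, and the calls overlap here as well. Gbeta5, a G-protein subunit gene beside CG10959, had 250 and 311 in M1[wt] males, against 158 and 132 in wt males.

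Other strong members lay at genes of varied function. At Usf, which encodes a basic helix-loop-helix transcription factor, the peak values were 229 in M1[wt] males and 116 in wt males. At ND-75, a subunit gene of respiratory complex I (chrX:8246087-8251599), they were 166 in M1[wt] males and 112 in wt males. At RpS5a, a gene of the small ribosomal subunit (summit 70 bases outside), they were 116 in M1[wt] males and 112 in wt males, and at Hers, whose product represses histone genes, 415 in M1[wt] males and 109 in wt males. Rubicon, an autophagy regulator gene, had 77.0 in M1[wt] males and 105 in wt males, and Remo had 88.8 in M1[wt] males and 104 in wt males. At IntS4, a gene of the Integrator complex, and the adjoining CG12112, the values were 160 in M1[wt] males and 98.4 in wt males, and at Tango5, a gene of secretory transport, they were 199 in M1[wt] males and 96.7 in wt males. The members at CG4768, CG2059 and the pair CG12118 and CG12106 completed the 20 strongest, with 447, 92.0 and 230 in M1[wt] males, and 119, 116 and 113 in wt males. At CG4768, CG2059 and Hers the M1[wt] summit lay 795, 511 and 521 bases from the wt summit.

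**Figure D2:**
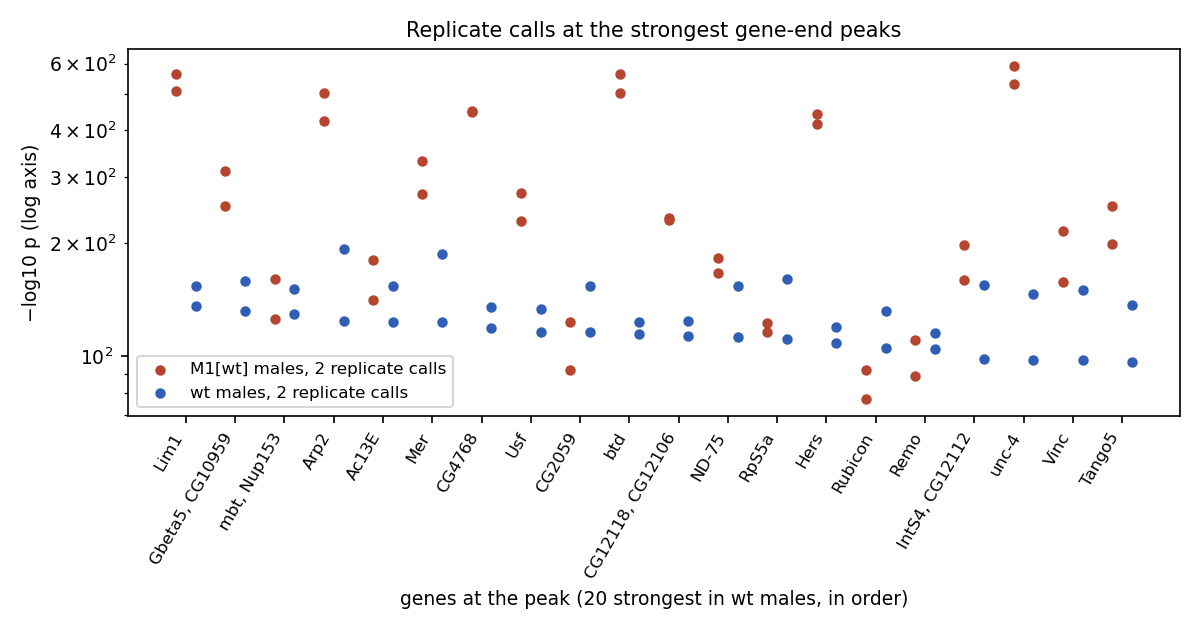
Both replicate calls (−log10 p, log axis) of the 20 strongest members, in order of wt strength, with M1[wt] males on the left of each pair of columns and wt males on the right. At Lim1, btd and unc-4 both M1[wt] calls stand above 500, against 97.7 to 154 in wt males, while at mbt with Nup153, Ac13E, RpS5a, CG2059 and Remo the calls of the lists overlap and at Rubicon both M1[wt] calls lie below both wt calls.

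Across the members, the M1[wt] value was the higher in 293 of 390, with a median ratio of M1[wt] to wt of 1.38. The same ratio was 1.72 over the 646 weaker shared X peaks away from ends and 1.57 over the 877 autosomal gene-end peaks, so the higher M1[wt] values run through the lists. Both M1[wt] calls lay above both wt calls in 212 members, 54.4% (49.3 to 59.4%), against 68.4% of the weaker shared X peaks away from ends (64.7 to 72.0%). Over all 2819 shared peaks of the wt list this share was 59.6%. Both M1[wt] calls lay below both wt calls in 51 members, 13.1% (9.89 to 16.8%), against 7.12% of the peaks away from ends (5.26 to 9.38%). The share over all shared peaks was 10.5%. The replicate calls of a member differed by a median factor of 1.19 in M1[wt] males and 1.28 in wt males. The first call was the higher in 85 members in the M1[wt] list and in 320 in the wt list, so the calls of a list are not interchangeable. Between the lists, the Spearman correlation of peak strength was 0.73 across members, 0.63 across the peaks away from ends and 0.69 across the autosomal gene-end peaks, given as descriptions since neighbouring peaks are not independent and every wt value was held below rank 200.

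The M1[wt] peak of 7 members belonged to the 200 strongest X peaks of its own list, 1.79% (0.725 to 3.66%), against 36 of 646 away from ends, 5.57% (3.93 to 7.63%). These 7 lay at Lim1, Arp2, CG4768, btd, Hers, unc-4 and Ugalt, a sugar-nucleotide transporter gene, of which Ugalt falls outside the rule for named genes and was chosen after its values were seen. The Ugalt peak had 374 in M1[wt] males and 71.4 in wt males.

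**Figure D3:**
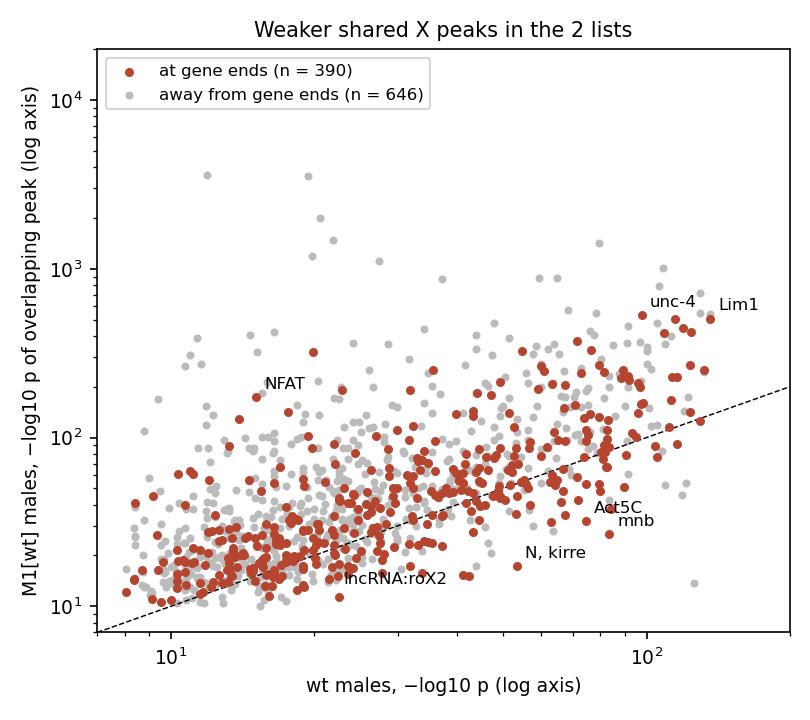
The −log10 p of each weaker shared X peak in the M1[wt] list (vertical) and in the wt list (horizontal), both on log axes, with members in colour, other weaker shared X peaks in grey, and a dashed line of equal values. The members stay between 10.6 and 531 in M1[wt] males, Lim1 and unc-4 lie far above the line, and mnb, Act5C and N with kirre lie below it.

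Some members held very different places among the 390 in the lists. Those with the largest fall in order in M1[wt] males were at N with kirre, at RhoGAP19D, at mnb, at RpL17 and at Tim9b with Pstk and CG14210. The peak between N, which encodes the Notch receptor, and kirre, which encodes an adhesion protein of myoblast fusion (chrX:3134568-3135205, summit 99 bases outside), had calls of 17.3 and 23.9 in M1[wt] males, against 95.6 and 53.4 in wt males. It stood at place 330 of the 390 in M1[wt] males and at place 91 in wt males. At mnb, which encodes the kinase Minibrain, the calls were 26.9 and 31.7 in M1[wt] males, against 83.4 and 85.8 in wt males. At Act5C, a cytoplasmic actin gene (named after its values were seen), they were 31.9 and 117 in M1[wt] males, against 127 and 74.5 in wt males, and they overlap. RpL17 and RhoGAP19D had 15.4 and 15.1 in M1[wt] males, and 41.1 and 42.4 in wt males. The M1[wt] summit of this RpL17 member lay 734 bases from its wt summit. The same M1[wt] value also stood for another RpL17 member, at 12.6 in wt males.

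In the other direction stood the members at NFAT, CG43255, CG6867, pkm and disco-r. NFAT encodes a transcription factor of the NFAT family, and the summit (chrX:13622758-13625721) lies 338 bases inside the gene. Its calls were 173 and 255 in M1[wt] males, against 17.3 and 15.1 in wt males. This gene also carries one of the 200 strongest wt peaks, at rank 199 (chrX:13664053-13664440). CG43255 had 129 in M1[wt] males and 13.9 in wt males, CG6867 had 89.1 in M1[wt] males and 13.3 in wt males, and pkm had 60.6 in M1[wt] males and 10.3 in wt males. At disco-r, which encodes a zinc-finger protein, the calls were 74.8 and 63.0 in M1[wt] males, against 13.4 and 10.99 in wt males.

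The widest member held the gene of lncRNA:roX2, one of the RNAs of the complex. The wt interval, chrX:11572824-11582456, was 9633 bases wide, with its summit 181 bases inside the gene, and its calls were 22.2 and 27.5. The M1[wt] peak that made it a member, chrX:11572887-11573506, overlapped its left edge alone, had calls of 20.2 and 23.9, and had its summit 7165 bases from the wt summit. The next peak of the M1[wt] list, chrX:11583963-11585137, overlapped the next wt peak, chrX:11584021-11584407, which is the pkm member. The shared status of the roX2 member thus rests on sequence away from the gene. Of the other very wide members, ND-75 had 5498 bases in M1[wt] males and 5513 in wt males, and the member at Top3beta, a topoisomerase gene, and wuho had 4894 bases in M1[wt] males and 5278 in wt males. There were 14 members over 3000 bases wide in the wt list.

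The members touched the ends of 488 genes, of which 468 are protein-coding and 20 are lncRNA genes. That is 21.4% of the 2192 X-linked protein-coding genes and 8.3% of the 241 X-linked lncRNA genes. With the protein-coding genes in 4 classes of equal size by length, 10.9% of the shortest class (up to 1314 bases) had a member at an end, and 23.9, 25.9 and 24.6% of the next classes in order of length. The median length was 3300 bases for protein-coding genes with a member and 2368.5 bases for the others. Of those with a member, 12.2% had a summit of the 200 strongest X peaks inside the gene, against 6.61% of those without one. A further shared X summit inside the gene was found for 32.3% of those with a member and 19.8% of the others. Neither pair of shares was matched for gene length, which differs between these genes. Members lay at both ends of 28 genes. Among these were RpS6, sov, Tip60, which encodes a histone acetyltransferase, and Vps4, which encodes an ATPase of membrane traffic. Windows at both ends overlap in genes shorter than 1000 bases, such as RpS14b with 895 bases.

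The gene groups chosen for this account, listed by symbol, are set against the 21.4% of all X-linked protein-coding genes. Genes of cytosolic ribosomal proteins had members at 10 of 14. RpS5a led, as given above, followed by RpS6 (53.9 in M1[wt] males and 41.1 in wt males) and RpL17. RpS14a and RpS14b, which are close copies side by side, shared a member (11.4 in M1[wt] males and 22.5 in wt males), and reads from such copies can be assigned to either. A stronger member lay at the other end of RpS14b, with its summit inside Ubr3 (59.5 in M1[wt] males and 32.2 in wt males). Genes of mitochondrial ribosomal proteins had members at 5 of 11, with the highest wt value at mRpS25 (27.4 in M1[wt] males and 26.4 in wt males).

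Respiratory chain and ATP synthase genes had members at 5 of 13. ND-75 was followed by ND-18 (324 in M1[wt] males and 54.8 in wt males) and ND-B18 (24.2 in M1[wt] males and 20.3 in wt males). The wt interval at ND-18 overlapped 2 M1[wt] peaks, and the summit of the one used lay 739 bases from the wt summit. Rab GTPase genes, which direct membrane traffic, had members at 4 of 13, among them Rab39 (77.2 in M1[wt] males and 60.0 in wt males), Rab18 (75.6 in M1[wt] males and 47.8 in wt males) and Rab40 (138 in M1[wt] males and 39.8 in wt males). Translation factor genes had members at 2 of 7, eIF3g1 (211 in M1[wt] males and 95.8 in wt males) and eIF4H1 (63.8 in M1[wt] males and 51.1 in wt males). Of the smaller groups, a member lay at 1 of 2 genes of the vacuolar proton pump (VhaAC39-1), 1 of 3 of the RNA polymerases (Polr2A), 1 of 4 of Mediator and TFIID (Taf8), 1 of 4 of the splicing factors (U2af50) and 1 of 5 of the nuclear pore (Nup153). Polr2A, the gene of the largest subunit of RNA polymerase II, shared its member with CG11699, at 79.2 in M1[wt] males and 90.4 in wt males. Taf8 had 53.8 in M1[wt] males and 45.1 in wt males, U2af50 had 62.4 in M1[wt] males and 43.7 in wt males, and VhaAC39-1 had 19.4 in M1[wt] males and 24.5 in wt males.

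The remaining groups had few members or none. Chemosensory receptor genes had a member at 1 of 25, Or7a (18.3 in M1[wt] males and 11.2 in wt males). The chorion and yolk protein genes, which are used in females, had none of 8, and the Cpr cuticle protein genes none of 4. The proteasome genes had none of 6. Several of these groups hold few genes, a peak beside a gene can belong to its neighbour, and no test of the groups was run. A gene without a member can still hold another shared X peak, as some splicing factor, respiratory chain and Rab genes did.

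**Figure D4:**
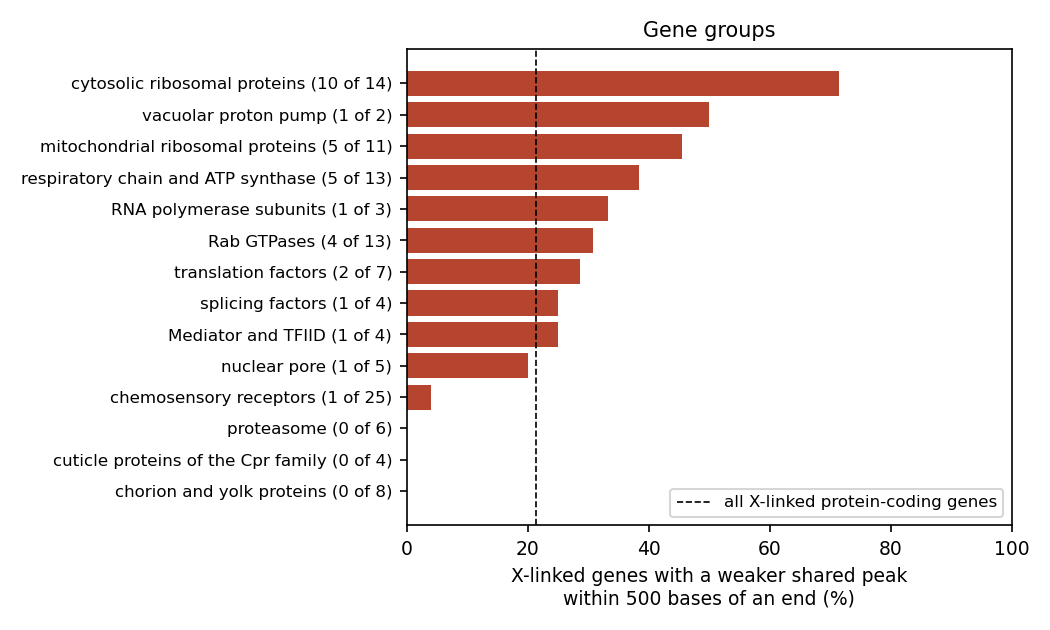
Share of the X-linked genes of each group with a member within 500 bases of an end, with counts in brackets and a dashed line at the 21.4% of all X-linked protein-coding genes. The cytosolic ribosomal proteins (10 of 14) lie far to the right of the line, while proteasome, cuticle, chorion and yolk genes are at 0.

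The members were spread along the whole X. Full windows of 1 Mb held between 3 and 29 members, with a median of 18, and over the 23 windows their number followed the number of genes (Spearman correlation 0.80, a description over windows of 1 chromosome). The nearest other member was a median of 8637 bases away, and 132 members had another within 5000 bases. The nearest of the 200 strongest X peaks was a median of 15353.5 bases from a member (95% interval of the median 13359 to 18552) and 14620.5 bases from the weaker shared X peaks away from ends (12254 to 16892). It lay within 5000 bases of 19.2% of members (15.4 to 23.5%) and of 24.5% of the others (21.2 to 28.0%), and these intervals overlap.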

How the data were processed

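Per the labels' protocols, chromatin of whole adult flies crosslinked with formaldehyde was precipitated with rabbit antibodies to MSL2, and preimmune rabbit IgG was the control. Per the submitters' processing notes, the tools were MACS2, Bowtie2, cutadapt, deepTools and Picard. Builds dm3 and dm6 are both listed there without roles, and no settings are given. Both lists name the male preimmune sample as control, so they share it. Both have 20 columns in the layout of the irreproducible discovery rate (IDR) method for 2 replicate calls. What those calls are is not in the labels, so they do not count as separate samples. In the lists the authors deposited, the −log10 p of a peak is the lower of its calls in all 3799 wt and 3944 M1[wt] rows, other columns hold the −log10 of the IDR, and a score column holds a scaled form of the IDR. The columns for fold and q are placeholders, and the global IDR is 0.05 or less throughout.

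Gene positions came from an NCBI RefSeq table of Release 6, which fits dm6 coordinates, printed here 1-based. The table holds no strand, and no sequence was used here, so the planned shares of gene starts and the planned motif search were replaced by positions relative to gene ends. The M1[wt] value of a member is that of its strongest overlapping peak. Members, gene groups and named genes were chosen with earlier results of these data known. The named genes are the 20 members with the highest wt −log10 p, those nearest to the limits, the 5 with the largest change of order in each direction, the 3 widest, those with most gene ends, and up to 3 per group. Selection of members was tested on simulated data. Shares carry exact Clopper-Pearson 95% intervals and medians order-statistic 95% intervals, computed with Python 3.11.15 and scipy 1.17.1. Depth is unknown. Alternatives are given in the closing section. The symbol patterns of the Rab and chorion groups were narrowed after seeing which genes they matched, and a further gene group that was looked up is not reported here.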

Additional observations from a re-analysis of the deposited data

How the results depend on the processing

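No paired analysis was possible because each group has 1 listed sample. Of 42 alternative values, 27 stayed within the interval of the reported value, or within 1.5 times it for counts, and 15 did not. With 200 bases from an end the members numbered 172, the median −log10 p was 48.6 in the M1[wt] list and 34.3 in the wt list, the median width was 651 bases, 59.9% of summits were inside a gene and a member lay at 8.39% of the X-linked protein-coding genes. With 1000 bases there were 586 members, 82.6% of summits were inside a gene and the gene share was 34.9%. At a global IDR of 0.01 or less the median was 47.0 in the M1[wt] list and 33.1 in the wt list, and the gene share was 18.2%. With the 100 strongest left out the wt median was 32.0 and the gene share 23.5%, and with the lists exchanged the median width was 838 bases. The share inside a gene stayed between 74.8 and 78.6% under the other 7 settings. Results on gene starts and promoters were not run. The alternatives for the shares inside a gene, for genes and for the distance were set up after seeing the data.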
